A study of Mus musculus with 36 samples.

Results

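The genes described are 9 cytosolic sulfotransferases of mouse liver, Sult1a1, Sult1b1, Sult1c2, Sult1d1, Sult1e1, Sult2a6, Sult2a8, Sult3a1 and Sult5a1, taken as every probe that carries one of these symbols. They had 12 probes on the array. 8 of the 9 genes entered the fit, among 10765 genes tested in the series. Sult1b1 did not, because its 2 probes were detected on 0 and 1 of 36 arrays. The 36 samples, in 10 groups of 3 or 4, came from FVB/n mice, and each was read on its own single-color bead array. The tumour groups are named by their drivers, AKT-NRAS and AKT-CAT, where CAT is taken to mean beta-catenin although no label says so. AKT-NRAS tumours comprised 4 samples with DDC (Tu_AKTNRAS_DDC) and 4 without (Tu_AKTNRAS). AKT-CAT tumours comprised 4 samples with CCl4 (Tu_AKTCAT_CCl4), 4 with DDC (Tu_AKTCAT_DDC) and 4 with neither (Tu_AKTCAT). Non-tumoral AKT-CAT liver comprised 4 samples with CCl4 (NonTu_AKTCAT_CCl4), 3 with DDC (NonTu_AKTCAT_DDC) and 3 with neither (NonTu_AKTCAT). Livers outside the tumour models were 3 given DDC only (DDC_only) and 3 given PBS instead (PBS_only). DDC causes porphyrin plugs and bile duct injury in mouse liver. CCl4, carbon tetrachloride, is activated by cytochrome P450 and damages pericentral hepatocytes. Dose, duration, age, the way the drivers were introduced and whether the samples of a group were separate animals are not given in the sources used here, so every p below measures only the spread between these samples.

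Cytosolic sulfotransferases move a sulfonate group from the donor PAPS onto hydroxyl or amine groups of small molecules, which makes them more soluble and easier to excrete. The SULT1 family acts mainly on phenols, catecholamines, thyroid hormones and estrogens. The SULT2 family acts on hydroxysteroids and bile acids. In mouse liver several members differ between the sexes, and the Sult2a genes and Sult3a1 are known as genes of female liver. PAPS itself is made from inorganic sulfate by the PAPS synthases.

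An array detected 10688 to 13101 probes, with a median probe signal of 7.35 to 46.2 intensity units. Precision is set by how few arrays each group has. There were 5 slides. Slide 1 carried DDC_only, PBS_only and 2 Tu_AKTCAT_DDC arrays, slide 2 the other 2 with NonTu_AKTCAT_DDC and 3 Tu_AKTCAT arrays, and slide 3 the last Tu_AKTCAT array with NonTu_AKTCAT. Slide 4 held only the AKT-NRAS groups and slide 5 only the CCl4 groups, so slide and group cannot be told apart wherever either of these is set against another slide. Of 15 measured hepatocyte markers, 13 or more were detected in each group, and the tissue label held in that sense. Of 3 Y-linked genes with a probe, Eif2s3y was detected on no array, Kdm5d on 1, and Uty on 1 or more arrays of 8 groups, at 6.21 or less. The female-expressed Xist read 6.72 to 7.93 in Tu_AKTCAT_CCl4 and 6.30 to 7.88 in NonTu_AKTCAT_CCl4 on the log2 intensity scale, and 8.19 or more on all other arrays.

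All levels below are log2 intensities after background correction and quantile normalization, on which undetected probes lay near 4.5 and the lowest detected intensity of an array lay between 4.96 and 5.54. Levels of different genes cannot be ranked from such probes, so each gene is compared only with itself. Differences are log2 fold changes of the fit with its standard error, and a gene was called when its p, adjusted over the 10765 genes, was under 0.05. Where no array of the lower group detected the probe, the fold is a lower bound and is written as at least N-fold.

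**Figure D1:**
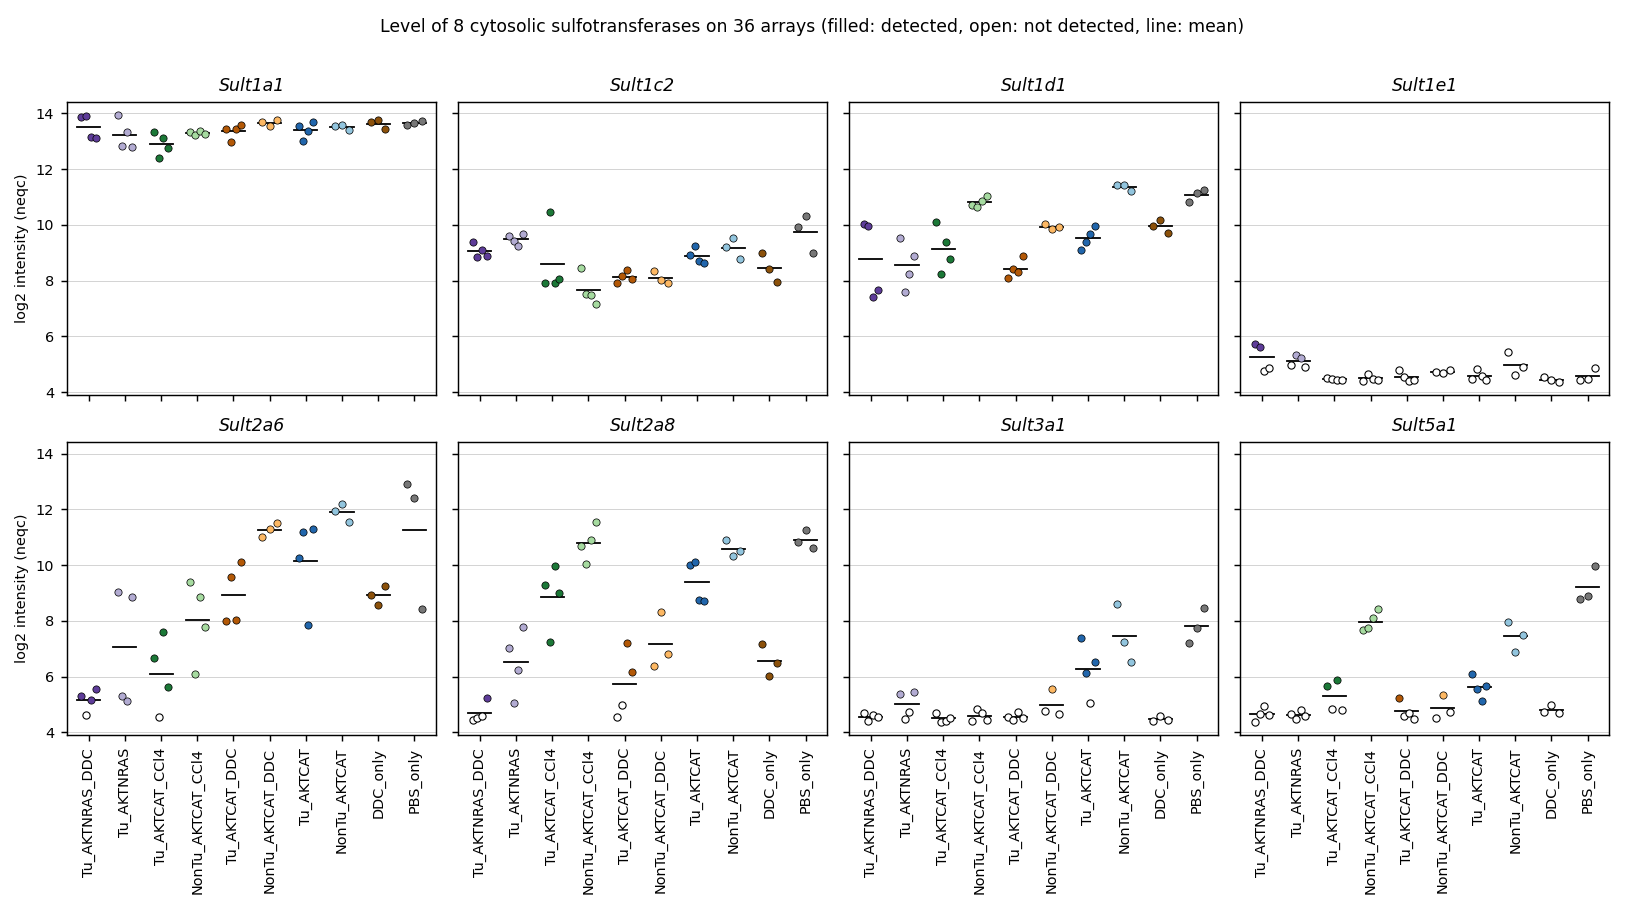
Log2 intensity of 8 sulfotransferases on all 36 arrays, 1 panel per gene and 1 column per group. Filled points were detected, open points were not, and lines are group means. Sult1a1 stayed between 12.40 and 13.94 on every array, while Sult2a8, Sult5a1, Sult2a6 and Sult3a1 ran from high levels in PBS_only livers down to background in other groups.

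Among the phenol sulfotransferases, Sult1a1, which conjugates simple phenols and phenolic drugs, was the steady one. It lay between 12.40 and 13.94 on all 36 arrays and was called in none of the 17 comparisons, although under median scaling it was called in 5, lower in 4 of them (by -0.77 to -1.40). Without Tu_AKTNRAS 1 it was called lower in Tu_AKTNRAS than in PBS_only (-0.67, adjusted p = 0.0148). Its largest fitted difference was that of Tu_AKTCAT_CCl4 from Tu_AKTCAT, -0.50, with a 95% interval from -0.94 to -0.05 before adjustment. Sult1b1, a thyroid hormone sulfotransferase of liver and gut, was above background only on 1 Tu_AKTCAT array, at 5.16 with 1 of its probes. Sult1e1, the estrogen sulfotransferase, was detected on 4 of 36 arrays, all of them AKT-NRAS tumours. It read 5.73, 5.61, 4.75 and 4.88 in Tu_AKTNRAS_DDC, the first 2 of them detected, and 4.95, 5.31, 5.22 and 4.91 in Tu_AKTNRAS, the middle 2 detected. It entered the fit only through these tumours, so its higher calls there are a description.

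Sult1c2, from the SULT1C branch, whose rat member activates N-hydroxylated arylamines, was detected on every array between 7.16 and 10.45. Its group means ran from 7.65 in NonTu_AKTCAT_CCl4 to 9.75 in PBS_only, and each group overlapped the next in that order. Sult1d1, a sulfotransferase of dopamine and other catecholamines in the mouse that humans lack as a working gene, was also detected on every array, between 7.42 and 11.45. Its order held a gap. The highest 3 groups were NonTu_AKTCAT, PBS_only and NonTu_AKTCAT_CCl4, with means of 11.37, 11.07 and 10.81, and the lowest of their arrays (10.62) lay above every array of the other 7 groups. Next came DDC_only at 9.95 and NonTu_AKTCAT_DDC at 9.94, and the 5 tumour groups had the lowest means, 9.53 to 8.42, with overlap between neighbours. A second Sult1d1 probe was detected on only 3 of 36 arrays.

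Sult2a8, a mouse bile acid sulfotransferase, ran from high levels to background between groups. Mean levels were 10.89 in PBS_only, 10.78 in NonTu_AKTCAT_CCl4 and 10.58 in NonTu_AKTCAT, which overlapped each other. Tu_AKTCAT (9.40) did not overlap NonTu_AKTCAT, and below it came Tu_AKTCAT_CCl4 (8.87), NonTu_AKTCAT_DDC (7.17), DDC_only (6.55), Tu_AKTNRAS (6.53), Tu_AKTCAT_DDC (5.73) and Tu_AKTNRAS_DDC (4.69), each overlapping its neighbour. The 4 groups that received DDC were thus among the lowest 5 of the 10. Sult2a6, a hydroxysteroid sulfotransferase of the same family, kept another order. It was highest in NonTu_AKTCAT (11.90), NonTu_AKTCAT_DDC (11.27) and PBS_only (11.25), and lowest in Tu_AKTNRAS (7.08), Tu_AKTCAT_CCl4 (6.10) and Tu_AKTNRAS_DDC (5.16). Several Sult2a genes are near-identical in sequence, and a probe may read more than 1 of them.

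Sult3a1, an amine sulfotransferase, was detected on 12 of 36 arrays. These were all 3 PBS_only and all 3 NonTu_AKTCAT arrays, 3 of 4 Tu_AKTCAT arrays, 2 of 4 Tu_AKTNRAS arrays and 1 of 3 NonTu_AKTCAT_DDC arrays. Sult5a1, a family 5 enzyme whose substrates are little known, was detected on 18 of 36 arrays with the brighter probe and 15 of 36 with the other. Its mean was 9.21 in PBS_only, apart from NonTu_AKTCAT_CCl4 (7.98) and NonTu_AKTCAT (7.44), which overlapped each other. It was 5.61 in Tu_AKTCAT, and the remaining 6 groups, between 5.29 and 4.63, overlapped in sequence. Both genes passed the filter only through the groups where they were high, so their calls against those groups are a description. The counts and medians over the 8 genes below likewise describe the genes that passed and support nothing about the family.

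The promoters of 4 genes are shown because the results below turn on them. In AKT-CAT liver and tumours Sult2a8 and Sult5a1 were called lower with DDC and not with CCl4, Sult2a6 with CCl4 and not with DDC, and Sult3a1 with both. For Sult5a1 in tumours, CCl4 set directly against DDC was not called (0.54, adjusted p = 0.183). Its DDC call there depended on single arrays, as given below. All 9 genes had a RefSeq promoter of 300 bases (build GRCm38.p6), running from 250 bases before the start to 50 after it, 11 windows in all since Sult1b1 and Sult2a8 have 2 each. The build behind the array is not given in the sources used here. Capitals mark the letters of 4 short motifs searched on both strands. These were AGGTCA, a hexamer bound by many nuclear receptors, TTCNNNGAA, the STAT palindrome, TGTTTAC, a forkhead site, and TATAAA, the TATA box. Their letters occurred in 16.3%, 8.3%, 3.65% and 13.6%, in this order, of 32851 promoters of the same length.
Sult2a8, chr7:14438502-14438801, minus strand: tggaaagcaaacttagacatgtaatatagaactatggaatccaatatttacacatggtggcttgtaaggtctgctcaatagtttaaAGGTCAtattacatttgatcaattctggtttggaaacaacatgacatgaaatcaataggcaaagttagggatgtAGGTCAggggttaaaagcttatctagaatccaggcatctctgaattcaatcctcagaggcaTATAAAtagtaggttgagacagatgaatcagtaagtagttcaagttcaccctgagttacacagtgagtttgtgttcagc
Sult5a1, chr8:123158231-123158530, minus strand: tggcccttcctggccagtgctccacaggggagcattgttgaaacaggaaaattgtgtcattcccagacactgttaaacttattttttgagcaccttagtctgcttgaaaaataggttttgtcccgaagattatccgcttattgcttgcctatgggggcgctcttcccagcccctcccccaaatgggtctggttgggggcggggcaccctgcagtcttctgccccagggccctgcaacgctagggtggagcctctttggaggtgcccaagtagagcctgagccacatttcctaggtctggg
Sult2a6, chr7:14254821-14255120, minus strand: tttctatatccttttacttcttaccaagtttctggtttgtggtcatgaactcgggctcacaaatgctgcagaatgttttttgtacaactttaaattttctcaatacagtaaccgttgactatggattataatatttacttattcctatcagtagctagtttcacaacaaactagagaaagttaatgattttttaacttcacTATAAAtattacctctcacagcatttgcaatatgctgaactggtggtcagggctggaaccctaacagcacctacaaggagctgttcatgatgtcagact
Sult3a1, chr10:33857472-33857771, plus strand: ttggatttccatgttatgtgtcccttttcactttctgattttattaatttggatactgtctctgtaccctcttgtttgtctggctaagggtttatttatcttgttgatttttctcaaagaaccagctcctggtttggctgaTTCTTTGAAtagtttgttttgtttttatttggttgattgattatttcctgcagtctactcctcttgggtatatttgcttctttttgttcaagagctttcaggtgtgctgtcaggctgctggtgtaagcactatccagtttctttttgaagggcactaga

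The Sult2a8 window held AGGTCA at -164 and -90 and TATAAA at -29 from the start. The second Sult2a8 window, at chr7:14446538-14446837, held the TATA letters on the opposite strand and none of the others. Sult2a6 held TATAAA at -49, Sult3a1 the STAT letters at -109, and Sult5a1 none of the 4 motifs. Among the other windows, 1 of the Sult1b1 windows held AGGTCA 2 times and the Sult1e1 window 1 time, and the Sult1d1 window held the forkhead and TATA letters after the start. A match describes the letters only.

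Sult2a8, Sult3a1 and Sult5a1 were lower with DDC both in control liver and in non-tumoral AKT-CAT liver. For Sult3a1 and Sult5a1 these calls are a description, since the groups without DDC let both genes through the filter. In DDC_only against PBS_only, 4 of the 8 genes tested were lower and 0 higher, where 11.6% of all genes were called lower and 11.1% higher. Sult2a8, Sult3a1 and Sult5a1 fell, and with them Sult1c2. The median over the 8 was -1.82, beside -0.04 over all genes. In these bulk samples, fewer hepatocytes and less RNA per hepatocyte cannot be told apart. The 15 hepatocyte markers summed to 247736 to 266946 intensity units in DDC_only and 254843 to 278821 in PBS_only, and 1 of the 15 was called, lower. The 9 periportal hepatocyte markers summed to 25543 to 26766 in DDC_only and 33066 to 38316 in PBS_only, with 1 higher and 3 lower. The 14 pericentral hepatocyte markers summed to 37061 to 49666 in DDC_only and 55216 to 65206 in PBS_only. The 9 neutrophil markers summed to 8814 to 14727 in DDC_only and 655 to 1409 in PBS_only. Cxcr2, Mmp8 and Retnlg were undetected in both, and Camp was undetected in DDC_only but not in PBS_only. A high sum can rest on few of these genes, as in Tu_AKTCAT_DDC, where 7 of the 9 were undetected at sums of 10846 to 27085. The part of these markers in the result was not tested.

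Sult2a8 read 7.16, 6.02 and 6.48 in DDC_only, against 10.82, 11.26 and 10.60 in PBS_only. It was 20.3-fold lower (-4.34 ± 0.64, adjusted p = 7.59e-06), and the groups lay over 3 log2 units apart. Sult5a1 was undetected on all 3 DDC_only arrays, against 8.80, 8.88 and 9.96 in PBS_only. That made it at least 17.2-fold lower with the brighter probe (fit -4.42 ± 0.31, adjusted p = 7.66e-12). The other Sult5a1 probe differed less, with means of 4.61 in DDC_only, undetected on every array, and 7.54 in PBS_only. Sult3a1 was likewise undetected in DDC_only, against 7.22, 7.73 and 8.44 in PBS_only, and at least 6.44-fold lower (adjusted p = 3.45e-07). Sult1c2 fell less, with 8.99, 8.43 and 7.96 in DDC_only against 9.94, 10.32 and 9.0 in PBS_only (-1.29 ± 0.43, adjusted p = 0.0268). The Sult1c2 groups met at 8.99 and 9.0 without overlapping, and its call was lost without DDC_only 2 or 3 or PBS_only 1 or 2 (adjusted p between 0.0672 and 0.148).

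Sult2a6 was not called between these groups, and 1 PBS_only array stood apart from the other 2. It read 8.91, 8.57 and 9.26 in DDC_only, against 12.92, 12.43 and 8.42 in PBS_only. Without PBS_only 3 the difference was -3.76 with an adjusted p of 0.0106, and with it -2.34 ± 1.03 with an adjusted p of 0.104. Sult1d1 did not overlap between the groups, with 9.97, 10.16 and 9.71 in DDC_only and 10.82, 11.13 and 11.26 in PBS_only, but missed the threshold (-1.12 ± 0.49, adjusted p = 0.103). Sult1a1 differed by -0.04, with a 95% interval from -0.55 to 0.47.

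In non-tumoral AKT-CAT liver, 4 of the 8 genes were lower with DDC and 0 higher, with 7.78% of all genes called lower and 10.3% higher. Sult2a8, Sult5a1 and Sult3a1 fell again, and Sult1d1 was called with them. Sult1c2 missed the threshold here, although its groups did not overlap (-1.08 ± 0.43, adjusted p = 0.0785). Sult2a8 read 6.39, 8.34 and 6.79 in NonTu_AKTCAT_DDC, against 10.91, 10.32 and 10.52 in NonTu_AKTCAT (-3.41 ± 0.64, 10.6-fold lower, adjusted p = 0.000268). Sult5a1 was detected on 1 of 3 NonTu_AKTCAT_DDC arrays, at 5.33, against 7.95, 6.88 and 7.49 in NonTu_AKTCAT (-2.57 ± 0.31, adjusted p = 3.59e-07). Neither gene's groups overlapped. Sult3a1 was detected on 1 array of NonTu_AKTCAT_DDC, at 5.56, against 8.59, 7.24 and 6.51 in NonTu_AKTCAT (-2.46 ± 0.40, adjusted p = 4.56e-05).

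Sult1d1 read 10.03, 9.87 and 9.91 in NonTu_AKTCAT_DDC, against 11.44, 11.45 and 11.23 in NonTu_AKTCAT. The groups were tight and apart (-1.43 ± 0.49, 2.7-fold lower), but the adjusted p of 0.0409 rose to between 0.0645 and 0.0966 without any 1 of the 6 arrays. Sult2a6 was not called here, with 11.02, 11.29 and 11.51 in NonTu_AKTCAT_DDC against 11.95, 12.20 and 11.57 in NonTu_AKTCAT, a difference of -0.63 with a 95% interval from -2.74 to 1.48. The groups lay on slides 2 and 3, and with slide as a fixed block Sult3a1 (-2.13, adjusted p = 0.13) and Sult1d1 (-0.84, adjusted p = 0.767) were no longer called, while Sult2a8 (-4.33, adjusted p = 0.0135) and Sult5a1 (-2.49, adjusted p = 0.00858) were. The 9 periportal markers summed to 4987 to 11776 in NonTu_AKTCAT_DDC and 26708 to 39368 in NonTu_AKTCAT, with 1 higher and 6 lower, and their part was not tested. The 14 pericentral markers summed to 99667 to 104371 in NonTu_AKTCAT_DDC and 67742 to 76674 in NonTu_AKTCAT, and their part was not tested either.

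In AKT-CAT tumours, 3 of the 8 genes were lower with DDC and 0 higher, with 5.86% of all genes called lower and 7.4% higher. These were Sult2a8, Sult3a1 and Sult5a1. Sult2a8 read 4.55, 4.98, 7.21 and 6.17 in Tu_AKTCAT_DDC, the first 2 undetected, against 10.01, 10.13, 8.75 and 8.71 in Tu_AKTCAT (-3.67 ± 0.56, 12.7-fold lower, adjusted p = 5.16e-05). Within slide 2 alone, with 2 arrays against 3, the difference was -2.94 (adjusted p = 0.0907). Sult3a1 was undetected on all 4 Tu_AKTCAT_DDC arrays, against 7.39, 6.11, 5.07 and 6.52 in Tu_AKTCAT, the third undetected, and was at least 2.23-fold lower (adjusted p = 0.00154). Sult5a1 started low in the tumours, with 6.10, 5.54, 5.13 and 5.67 in Tu_AKTCAT, and was detected on 1 of 4 Tu_AKTCAT_DDC arrays, at 5.23. Its groups overlapped, and the fall of -0.86 ± 0.27 (adjusted p = 0.0312) was lost without Tu_AKTCAT 1, 2 or 4 or Tu_AKTCAT_DDC 2, 3 or 4 (adjusted p between 0.0558 and 0.108). It was lost with slide as a block too (adjusted p = 0.121), as was that of Sult3a1 (adjusted p = 0.0624). The 9 periportal markers summed to 2552 to 4061 intensity units in Tu_AKTCAT_DDC and 10413 to 22854 in Tu_AKTCAT, with 6 lower. The 12 endothelial markers summed to 814 to 2417 in Tu_AKTCAT_DDC and 4182 to 10531 in Tu_AKTCAT, with 4 of 11 tested lower Bmp2 undetected in both and Kdr in Tu_AKTCAT_DDC. The 8 macrophage and Kupffer cell markers summed to 1314 to 1746 in Tu_AKTCAT_DDC and 2698 to 4736 in Tu_AKTCAT, with 3 of 7 tested lower Cd5l undetected in both and Marco in Tu_AKTCAT_DDC. None of these markers was higher, the sums of the groups did not overlap, and their part in the result was not tested. The sums of the 14 pericentral markers overlapped, at 37982 to 72829 in Tu_AKTCAT_DDC and 42785 to 76419 in Tu_AKTCAT. Their part was not tested either.

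In AKT-NRAS tumours, 0 of the 8 genes were called with DDC in either direction by limma. Of all genes, 1.43% were called lower and 0.511% higher. Sult2a8 read 4.45, 4.50, 4.59 and 5.23 in Tu_AKTNRAS_DDC, only the last detected, against 7.03, 5.07, 6.23 and 7.77 in Tu_AKTNRAS (-1.84 ± 0.56, adjusted p = 0.0876). The groups overlapped through 1 array, and without Tu_AKTNRAS 2 the difference was -2.32 with an adjusted p of 0.0186. Sult2a6 read 5.29, 4.63, 5.16 and 5.56 in Tu_AKTNRAS_DDC, the second undetected, against 9.03, 5.29, 5.11 and 8.87 in Tu_AKTNRAS. The 2 high Tu_AKTNRAS arrays left a wide spread, and the difference of -1.91 ± 0.90 was not called (adjusted p = 0.36). At an unadjusted p under 0.05, 2 of the 8 genes differed, these same 2. Many other genes passed that threshold too, since Sult2a6, at an unadjusted p of 0.0405, ranked 1210 of 10765 genes by p.

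The DDC responses of both tumour models were also set against each other. The difference of the DDC effects by driver was called for 0 of the 8 genes (1.69% of all genes higher, 1.74% lower), with 1.84 ± 0.79 for Sult2a8 (adjusted p = 0.197) and 1.27 ± 0.50 for Sult3a1 (adjusted p = 0.156). Without Tu_AKTCAT 3 the Sult3a1 difference was called (1.67, adjusted p = 0.0302). Between AKT-CAT tumours and non-tumoral liver, Sult5a1 alone of the 8 passed the test of the difference of DDC effects (0.938% of all genes higher, 2.52% lower). Its fall was smaller in the tumours by 1.71 ± 0.41 (adjusted p = 0.0141), -0.86 in tumours and -2.57 in non-tumoral liver. Tu_AKTCAT already read 5.13 to 6.10, beside a lowest detected intensity of 4.96 to 5.54 per array, and the part of this in the difference was not tested. The call was lost without NonTu_AKTCAT 1 (1.46, adjusted p = 0.0553), under median scaling (1.44, adjusted p = 0.134) and when slide entered as a block (1.5, adjusted p = 0.3). For Sult2a8 the DDC effects differed by -0.26 between tumours and non-tumoral liver, with a 95% interval from -1.99 to 1.47.

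**Figure D2:**
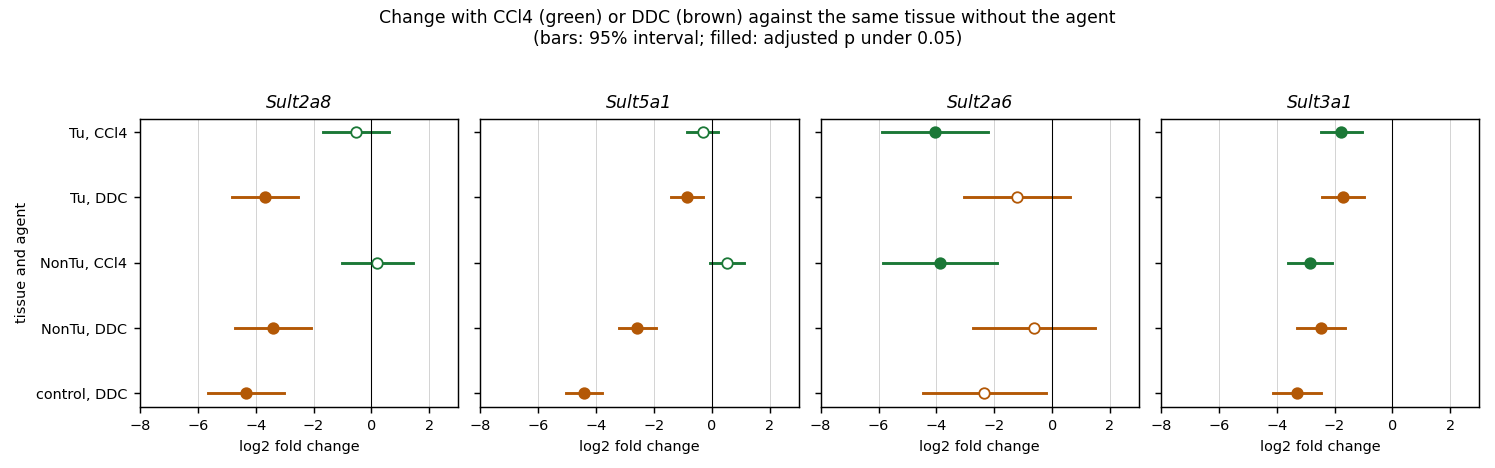
Fitted log2 fold change of 4 genes with CCl4 (green) or DDC (brown) against the same tissue without the agent, with 95% intervals before adjustment; filled points passed an adjusted p under 0.05. Sult2a8 and Sult5a1 lay left of 0 with DDC and near 0 with CCl4. Sult2a6 and Sult3a1 lay left of 0 with both agents, but Sult2a6 passed the threshold only with CCl4. The Sult2a6 points with DDC were -2.34 in control liver, -1.22 in tumours and -0.63 in non-tumoral liver. Where no array of the treated group was detected, the point is a fitted value and not a bound.

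The genes that were lower with CCl4 were Sult2a6 and Sult3a1 in both tissues and Sult1c2 in non-tumoral liver. In NonTu_AKTCAT_CCl4 against NonTu_AKTCAT, these were 3 of the 8 genes with 0 higher, where 8.21% of all genes were called lower and 10.7% higher. Sult2a6 read 9.39, 6.09, 8.87 and 7.78 in NonTu_AKTCAT_CCl4, against 11.95, 12.20 and 11.57 in NonTu_AKTCAT. It was 14.6-fold lower (-3.87 ± 0.97, adjusted p = 0.00487) with no overlap. Sult3a1 was undetected on all 4 NonTu_AKTCAT_CCl4 arrays, against 8.59, 7.24 and 6.51 in NonTu_AKTCAT, and at least 3.97-fold lower (adjusted p = 4.14e-06). Sult1c2 read 8.46, 7.51, 7.48 and 7.16 in NonTu_AKTCAT_CCl4, against 9.19, 9.55 and 8.76 in NonTu_AKTCAT (-1.51 ± 0.40, adjusted p = 0.00739), and its call was lost only without NonTu_AKTCAT 2 among the arrays left out in turn (adjusted p = 0.0506).

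Sult2a8 and Sult5a1 were not called with CCl4. Sult2a8 read 10.69, 10.03, 10.89 and 11.53 in NonTu_AKTCAT_CCl4, within reach of the 10.91, 10.32 and 10.52 of NonTu_AKTCAT (0.20, 95% interval from -1.02 to 1.43). Sult5a1 read 7.66, 7.74, 8.09 and 8.42 in NonTu_AKTCAT_CCl4, against 7.95, 6.88 and 7.49 in NonTu_AKTCAT (0.53, 95% interval from -0.06 to 1.13). In AKT-CAT tumours Sult2a6 and Sult3a1 were lower with CCl4, 2 of the 8 with 0 higher (3.18% of all genes lower, 5.11% higher). Sult2a6 read 6.65, 4.55, 7.58 and 5.63 in Tu_AKTCAT_CCl4, the second undetected, against 10.24, 11.19, 7.85 and 11.29 in Tu_AKTCAT (-4.04 ± 0.90, 16.4-fold lower, adjusted p = 0.00469). The groups did not overlap, although 7.58 and 7.85 lay close. Sult3a1 was undetected on all 4 Tu_AKTCAT_CCl4 arrays and at least 2.13-fold lower (adjusted p = 0.0016). Sult2a8 differed there by -0.53, with a 95% interval from -1.66 to 0.60, and Sult5a1 by -0.32. Sult1c2 was not called in the tumours (-0.29), but without Tu_AKTCAT_CCl4 2, which read 10.45 beside 7.91 to 8.04, it was called lower (-0.92, adjusted p = 0.0429). The difference of the CCl4 effects by tissue was called for 0 of the 8 genes (0.0557% of all genes higher, 0.0836% lower). The 14 pericentral hepatocyte markers summed to 39841 to 48171 intensity units in NonTu_AKTCAT_CCl4 and 67742 to 76674 in NonTu_AKTCAT, with 1 of 13 tested higher and 4 lower. They summed to 23195 to 35334 in Tu_AKTCAT_CCl4 and 42785 to 76419 in Tu_AKTCAT, with 4 of 13 lower. The sums of the 9 periportal markers overlapped in both tissues. They were 37502 to 47706 in NonTu_AKTCAT_CCl4 and 26708 to 39368 in NonTu_AKTCAT, and 14077 to 21278 in Tu_AKTCAT_CCl4 and 10413 to 22854 in Tu_AKTCAT. Slide and CCl4 cannot be told apart in these comparisons. The pericentral markers and the lower Xist of the CCl4 groups moved with these results, and their part in them was not tested.

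CCl4 and DDC were compared directly, a comparison added after the values were seen. In non-tumoral liver Sult2a8 and Sult5a1 were higher with CCl4 than with DDC and Sult2a6 was lower, 2 and 1 of the 8, where 10.1% of all genes were called higher and 12.1% lower. Sult2a8 was 12.2-fold higher in NonTu_AKTCAT_CCl4 than in NonTu_AKTCAT_DDC (3.61 ± 0.60, adjusted p = 4.4e-05) and Sult5a1 8.62-fold higher (3.11 ± 0.29, adjusted p = 2.96e-09). The other Sult5a1 probe differed less, with means of 6.58 in NonTu_AKTCAT_CCl4 and 4.62 in NonTu_AKTCAT_DDC. Sult2a6 was 9.46-fold lower (-3.24 ± 0.97, adjusted p = 0.0149). The arrays of the agents did not overlap for any of these 3 genes, and the Sult2a6 call was lost without NonTu_AKTCAT_CCl4 2 (adjusted p = 0.0625). In tumours Sult2a8 was 8.82-fold higher in Tu_AKTCAT_CCl4 than in Tu_AKTCAT_DDC (3.14 ± 0.56, adjusted p = 0.000139) and Sult2a6 7.07-fold lower (-2.82 ± 0.90, adjusted p = 0.0266), 1 and 1 of the 8, with 8.55% of all genes higher and 8.34% lower. The Sult2a6 call in tumours was lost without Tu_AKTCAT_CCl4 2 or 4 or Tu_AKTCAT_DDC 2 or 4 (adjusted p between 0.0644 and 0.102). Sult5a1 was not called between the agents in tumours (0.54 ± 0.27, adjusted p = 0.183), and its groups overlapped. The agents were on different slides in both tissues, so agent and slide cannot be told apart.

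**Figure D3:**
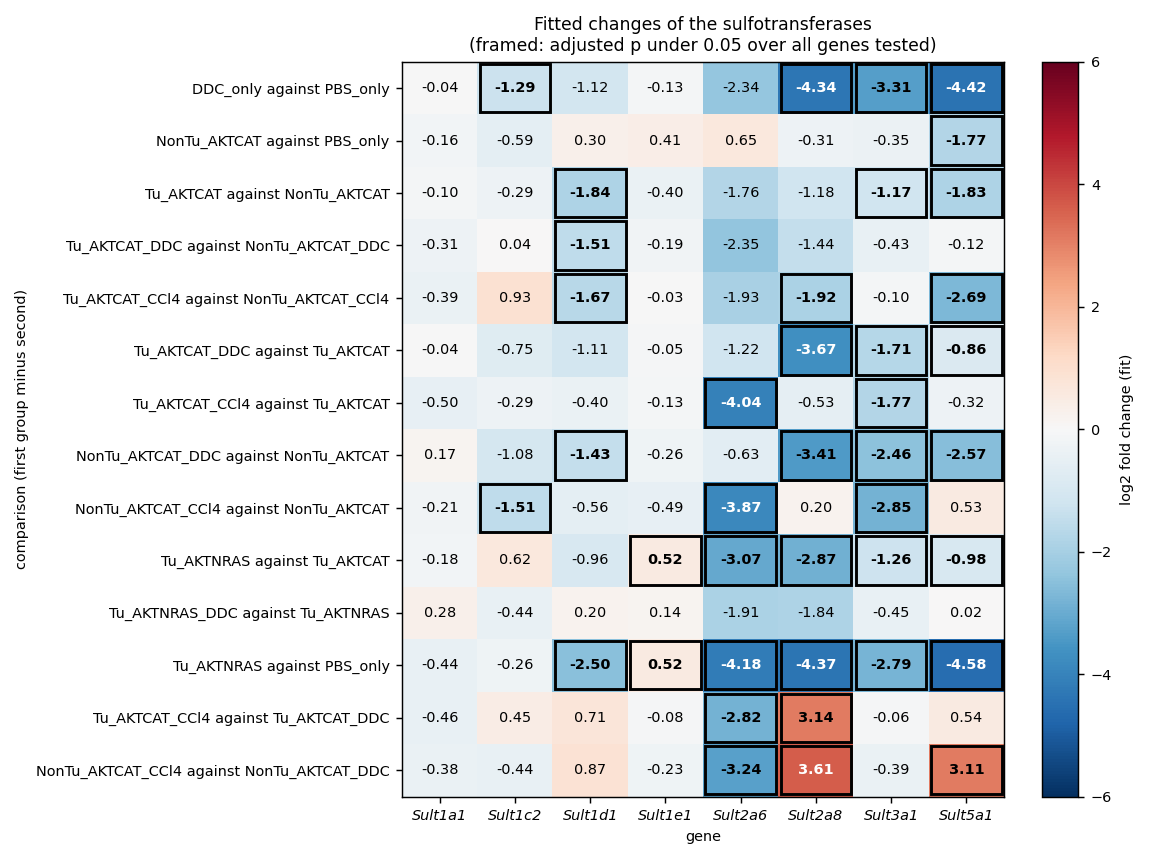
Fitted log2 fold changes of the 8 genes in 14 comparisons, first group minus second, red higher and blue lower. Framed cells passed an adjusted p under 0.05 over all genes tested, and where the lower group was undetected the value is a fit and not a bound. Framed cells were blue except for Sult1e1 in Tu_AKTNRAS and for Sult2a8 and Sult5a1 with CCl4 against DDC.

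Each AKT-CAT tumour group was compared with the non-tumoral group given the same agent. Sult1d1 was lower in the tumours each time, and Sult5a1 where it was not already at background. In Tu_AKTCAT against NonTu_AKTCAT, 3 of the 8 genes were lower and 0 higher (5.27% of all genes lower, 5.93% higher), Sult1d1, Sult5a1 and Sult3a1. Sult1d1 read 9.09, 9.37, 9.68 and 9.97 in Tu_AKTCAT, against 11.44, 11.45 and 11.23 in NonTu_AKTCAT (-1.84 ± 0.46, 3.59-fold lower, adjusted p = 0.00804). Sult5a1 read 6.10, 5.54, 5.13 and 5.67 in Tu_AKTCAT, against 7.95, 6.88 and 7.49 in NonTu_AKTCAT (-1.83 ± 0.29, 3.56-fold lower, adjusted p = 5.08e-05). Both genes separated the tissues without overlap. Sult3a1 overlapped (-1.17 ± 0.38, adjusted p = 0.04), and its call was lost without NonTu_AKTCAT 1 or 2 or Tu_AKTCAT 2 or 3 (adjusted p between 0.0739 and 0.365).

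Sult2a8 did not overlap between these groups either, but was not called (-1.18 ± 0.60, adjusted p = 0.219), nor was Sult2a6 (-1.76 ± 0.97, adjusted p = 0.264), in which Tu_AKTCAT 3 read 7.85 beside 10.24, 11.19 and 11.29. With slide as a fixed block the Sult5a1 call held (-1.77, adjusted p = 0.0218) while those of Sult1d1 (-1.40, adjusted p = 0.343) and Sult3a1 (-0.93, adjusted p = 0.488) were lost.

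With CCl4, 3 of the 8 genes were lower in the tumours and 0 higher (7.4% of all genes lower, 7.84% higher), and both groups lay on slide 5. Sult5a1 was detected at 5.66 and 5.86 on 2 of 4 Tu_AKTCAT_CCl4 arrays, against 7.66, 7.74, 8.09 and 8.42 in NonTu_AKTCAT_CCl4 (-2.69 ± 0.27, 6.44-fold lower, adjusted p = 1.5e-08). Its other probe differed less, with means of 5.14 in Tu_AKTCAT_CCl4 and 6.58 in NonTu_AKTCAT_CCl4. Sult1d1 read 10.11, 8.25, 9.39 and 8.78 in Tu_AKTCAT_CCl4, against 10.71, 10.62, 10.84 and 11.05 in NonTu_AKTCAT_CCl4 (-1.67 ± 0.43, adjusted p = 0.0064). Both genes were below every non-tumoral array. Sult2a8 read 9.28, 7.24, 9.97 and 8.99 in Tu_AKTCAT_CCl4 (-1.92 ± 0.56, adjusted p = 0.016), and its call was lost without Tu_AKTCAT_CCl4 2 or NonTu_AKTCAT_CCl4 4 (adjusted p of 0.117 and 0.0575). Sult1c2 was not called (0.93, adjusted p = 0.0901), but was called higher in the tumours without Tu_AKTCAT_CCl4 1 or 3 or NonTu_AKTCAT_CCl4 1 (adjusted p between 0.0378 and 0.0463). Each of these fits kept Tu_AKTCAT_CCl4 2, at 10.45 beside 7.91 to 8.04 in its group, and without that array Sult1c2 was not called.

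With DDC, Sult1d1 was the only 1 of the 8 genes called lower in the tumours, with 0 higher (3.29% of all genes lower, 2.48% higher). It read 8.10, 8.40, 8.32 and 8.87 in Tu_AKTCAT_DDC, against 10.03, 9.87 and 9.91 in NonTu_AKTCAT_DDC, with no overlap (-1.51 ± 0.46, adjusted p = 0.0477). That call was lost without Tu_AKTCAT_DDC 1, 2 or 3 or any NonTu_AKTCAT_DDC array (adjusted p between 0.0741 and 0.162), and within slide 2 the difference was -1.34 (adjusted p = 0.13). Sult2a6 did not overlap either, with 8.0, 9.56, 8.04 and 10.10 in Tu_AKTCAT_DDC against 11.02, 11.29 and 11.51 in NonTu_AKTCAT_DDC (-2.35 ± 0.97, adjusted p = 0.142).

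Some of the cell markers measured beside these results were as follows. Of 11 endothelial markers tested, 1, 6 and 5 were lower in the tumours without an agent, with CCl4 and with DDC, and 0 were higher. Of 7 macrophage and Kupffer cell markers, 1, 6 and 5 were lower. Their summed level was 2698 to 4736 intensity units in Tu_AKTCAT and 5358 to 9175 in NonTu_AKTCAT, with Cd5l undetected in both. Of the 9 periportal markers, 4, 7 and 4 were lower in the tumours. The 12 stellate cell and fibroblast markers summed lower in the tumours each time, without overlap. The sums were 7187 to 10797 in Tu_AKTCAT against 11876 to 15637 in NonTu_AKTCAT. With CCl4 they were 5450 to 9844 against 13935 to 16422, and with DDC 3000 to 7511 against 7640 to 10497. Pericentral markers summed lower in the tumours with CCl4 and with DDC (37982 to 72829 against 99667 to 104371), and overlapped without an agent. Their part in the sulfotransferase results was not tested.

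Non-tumoral AKT-CAT liver differed from PBS_only in 1 of the 8 genes, lower, with 0 higher (7.66% of all genes lower, 7.39% higher). Sult5a1 read 7.95, 6.88 and 7.49 in NonTu_AKTCAT, against 8.80, 8.88 and 9.96 in PBS_only (-1.77 ± 0.31, 3.41-fold lower, adjusted p = 0.000373). The groups did not overlap, but they lay on slides 3 and 1, and with slide as a block the difference was -1.53 with an adjusted p of 0.453. The other probe of Sult5a1 gave -0.76 (adjusted p = 0.0515). Sult2a8 differed by -0.31, with a 95% interval from -1.62 to 1.0.

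The bile acid enzyme Sult2a8 and 3 other genes were lower in AKT-NRAS than in AKT-CAT tumours. In Tu_AKTNRAS against Tu_AKTCAT, 4 of the 8 genes were lower and 1 higher, in a comparison where 16.9% of all genes were called lower and 20.6% higher. Sult2a8 read 7.03, 5.07, 6.23 and 7.77 in Tu_AKTNRAS, against 10.01, 10.13, 8.75 and 8.71 in Tu_AKTCAT (-2.87 ± 0.56, 7.33-fold lower, adjusted p = 0.000127). Sult5a1 was undetected on all 4 Tu_AKTNRAS arrays and at least 1.52-fold lower (adjusted p = 0.0047). For both genes the models did not overlap with the probes used. The other Sult5a1 probe, detected on 1 of 4 Tu_AKTCAT arrays, gave -0.24 (adjusted p = 0.443). Sult2a6 read 9.03, 5.29, 5.11 and 8.87 in Tu_AKTNRAS, against 10.24, 11.19, 7.85 and 11.29 in Tu_AKTCAT, with overlap (-3.07 ± 0.90, adjusted p = 0.00728). Sult3a1 was detected at 5.38 and 5.44 on 2 Tu_AKTNRAS arrays (-1.26 ± 0.35, adjusted p = 0.00491), also with overlap. Sult1d1 was not called (-0.96 ± 0.43, adjusted p = 0.0769), but was called lower without Tu_AKTNRAS 1 (-1.29, adjusted p = 0.0249).

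The 1 higher gene was Sult1e1, 0.52 ± 0.18 above Tu_AKTCAT (adjusted p = 0.024). It was detected on 2 of 4 Tu_AKTNRAS arrays and on 0 of 4 Tu_AKTCAT arrays, and the call was lost without Tu_AKTNRAS 2 or 3 or Tu_AKTCAT 1 or 4 (adjusted p between 0.0615 and 0.0783). Median scaling in place of quantile normalization turned its sign (-0.25). Against PBS_only, Tu_AKTNRAS was lower in 5 of the 8 genes and higher in 1, with 23.8% of all genes lower and 26.2% higher. Sult5a1 was at least 18.5-fold lower with the brighter probe. Its other probe differed less, with means of 4.62 in Tu_AKTNRAS and 7.54 in PBS_only. Sult2a8 was 20.6-fold lower (-4.37 ± 0.60, adjusted p = 3.89e-07), Sult3a1 6.91-fold, Sult2a6 18.1-fold and Sult1d1 5.67-fold (-2.50 ± 0.46, adjusted p = 3.77e-05). Sult2a6 overlapped between the groups, and its difference of -4.18 ± 0.97 ran from -3.35 without PBS_only 1 to -5.60 without PBS_only 3, the array at 8.42 beside 12.92 and 12.43. The higher gene was again Sult1e1 (0.52 ± 0.20, adjusted p = 0.0257), whose call was lost without Tu_AKTNRAS 2 or 3 or PBS_only 1 or 2 (adjusted p between 0.0619 and 0.103).

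AKT-NRAS tumours lay alone on slide 4, so model and slide cannot be told apart. Markers of other cells moved with the model. Macrophage and Kupffer cell markers summed to 11935 to 14750 intensity units in Tu_AKTNRAS and 2698 to 4736 in Tu_AKTCAT, with 3 of 7 tested higher and 2 lower and Cd5l undetected in both. Cholangiocyte and progenitor markers summed to 1172 to 2200 in Tu_AKTNRAS and 250 to 1832 in Tu_AKTCAT, with 2 of 7 higher, and Cftr and Prom1 undetected in Tu_AKTCAT. Hepatocyte markers summed to 164289 to 235066 in Tu_AKTNRAS and 237141 to 251054 in Tu_AKTCAT, with 4 of 15 higher and 4 lower. The 14 pericentral hepatocyte markers summed to 10178 to 35576 in Tu_AKTNRAS and 42785 to 76419 in Tu_AKTCAT, with 12 of 13 tested lower. Their part in the sulfotransferase results was not tested.

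Genes of sulfate activation and sulfur handling were measured on the same arrays. Of the 14 tested, 2 were higher and 7 lower in Tu_AKTNRAS against Tu_AKTCAT, where 20.6% of all genes were called higher and 16.9% lower. Papss2, the PAPS synthase known as the main form of adult liver, read 5.68, 5.20, 5.29 and 5.50 in Tu_AKTNRAS, against 7.50, 7.81, 7.93 and 8.13 in Tu_AKTCAT, and differed by -2.42 ± 0.24 (adjusted p = 4.24e-09). Csad, an enzyme of taurine synthesis (-2.98 ± 0.37), Suox, the mitochondrial sulfite oxidase (-1.52 ± 0.29), and Mpst, which transfers sulfur from mercaptopyruvate (-1.49 ± 0.23), were the others of the 4 with the largest change, all lower. Slc26a1, Slc35b3 and Papss1 are named after their values were seen. Slc26a1, which carries sulfate into hepatocytes, was lower in Tu_AKTNRAS than in Tu_AKTCAT (-1.41 ± 0.34, adjusted p = 0.0015), and Slc35b3, which carries PAPS into the Golgi, was higher (0.92 ± 0.13, adjusted p = 1.08e-06). Against PBS_only the 2 PAPS synthases went opposite ways in Tu_AKTNRAS, Papss2 by -3.22 ± 0.26 (adjusted p = 1.94e-11) and Papss1 by 1.57 ± 0.23 (adjusted p = 1.25e-06).

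With DDC, 1 of these 14 genes was higher and 3 lower in DDC_only, beside 11.1% and 11.6% of all genes. In non-tumoral AKT-CAT liver 1 was higher and 6 lower, beside 10.3% and 7.78%, and in AKT-CAT tumours 2 and 3, beside 7.4% and 5.86%. Papss2 was lower with DDC in tumours (-1.43 ± 0.24, adjusted p = 0.000262) and in non-tumoral liver (-1.47 ± 0.28, adjusted p = 0.000328), and was not called in DDC_only against PBS_only (-0.48 ± 0.28, adjusted p = 0.24). Mpst was lower with DDC in control liver (-1.37 ± 0.26) and in non-tumoral liver (-1.59 ± 0.26). NonTu_AKTCAT_DDC lay on slide 2 and NonTu_AKTCAT on slide 3, and the part of slide in the non-tumoral falls of both genes was not tested. With CCl4, 2 were higher and 2 lower in non-tumoral liver, beside 10.7% and 8.21% of all genes, and 0 and 2 in tumours, beside 5.11% and 3.18%, where Mpst (-1.75 ± 0.23, adjusted p = 1.34e-05) and Papss2 (-0.78 ± 0.24, adjusted p = 0.0427) were the 2.

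**Figure D4:**
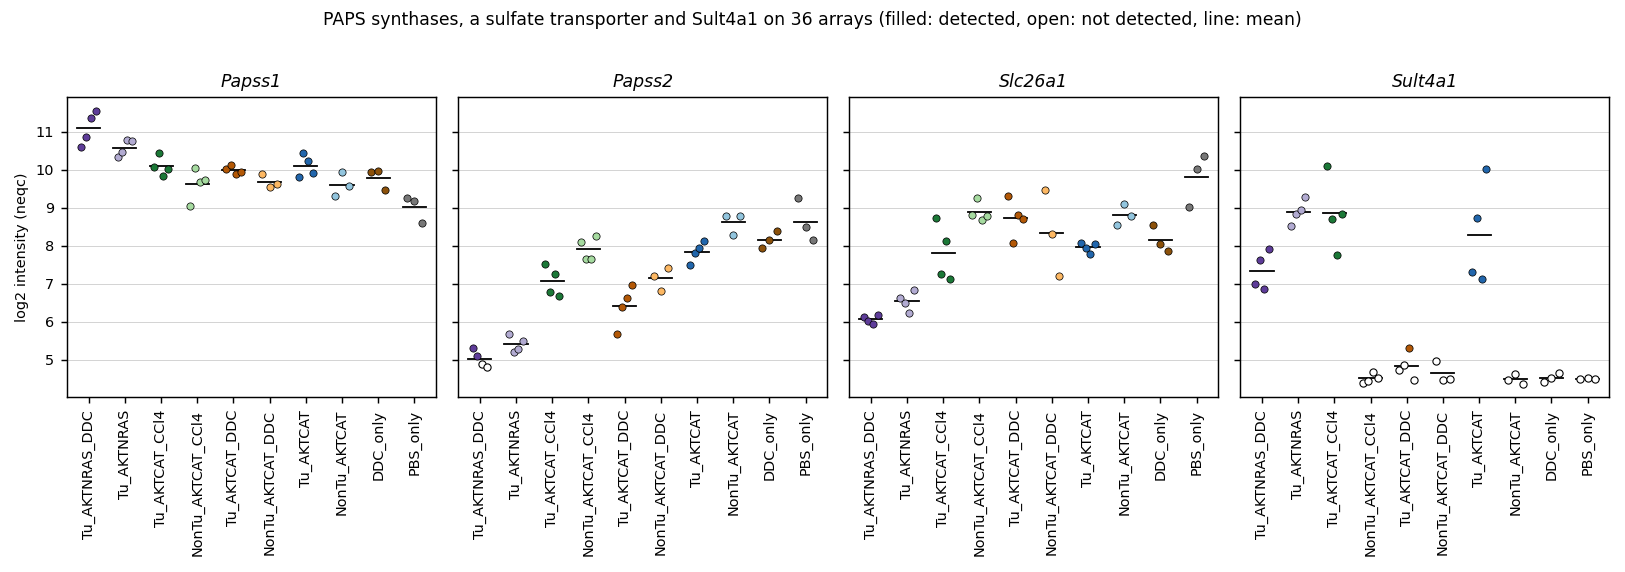
Log2 intensity on all 36 arrays of both PAPS synthases, the sulfate carrier Slc26a1 and the sulfotransferase Sult4a1, by group; filled points were detected, open points were not, lines are means. Papss2 was lowest and Papss1 highest in the AKT-NRAS groups. Sult4a1 was detected in tumours, on 1 of 4 arrays with AKT-CAT and DDC and on all arrays of the other tumour groups, and on no array of non-tumoral or control liver.

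Of the sulfotransferases outside the 9, 2 of the 4 tested were higher in Tu_AKTCAT than in NonTu_AKTCAT and 1 lower, beside 5.93% and 5.27% of all genes. Sult4a1, 1 of the 2, passed the filter only through tumours, so its values are a description and the count supports nothing. Sult4a1, an orphan enzyme known from brain, read 7.31, 8.72, 7.12 and 10.01 in Tu_AKTCAT and 10.10, 8.71, 7.75 and 8.83 in Tu_AKTCAT_CCl4. It read 8.51, 8.82, 8.93 and 9.27 in Tu_AKTNRAS and 7.0, 7.62, 6.85 and 7.91 in Tu_AKTNRAS_DDC, and was detected on no non-tumoral or control array. Under DDC the AKT-CAT tumours detected it on 1 of 4 arrays, at 5.30, and all 4 lay below every Tu_AKTCAT array. The other higher gene was Sult2b1, which sulfates cholesterol in skin. It read 5.17, 5.77, 5.30 and 5.06 in Tu_AKTCAT, the last undetected and all near the lowest detected intensity. It was detected on all 8 AKT-NRAS arrays, at 6.41 to 6.95 in Tu_AKTNRAS and 7.10 to 7.73 in Tu_AKTNRAS_DDC. Every array of DDC_only, NonTu_AKTCAT_DDC and Tu_AKTCAT_DDC detected it too, as did Tu_AKTCAT_CCl4 1, 2 and 4. No array of PBS_only, NonTu_AKTCAT or NonTu_AKTCAT_CCl4 did. Of the 15 other sulfotransferases listed, 5 had a probe and 4 were tested, the remaining 2 being Tpst1 and Tpst2, which sulfate tyrosines of proteins in the Golgi. Tpst1 was the gene lower in Tu_AKTCAT (-0.87 ± 0.24, adjusted p = 0.0155).

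Enzymes that remove sulfate, or that add glucuronic acid to many of the same substrates, were measured too. All genes were called higher and lower in 20.6% and 16.9% for Tu_AKTNRAS against Tu_AKTCAT, and in 11.1% and 11.6% for DDC_only against PBS_only. Of 7 sulfatase genes tested, 5 were higher and 0 lower in Tu_AKTNRAS against Tu_AKTCAT, led by the lysosomal Sgsh (1.36 ± 0.24, adjusted p = 3.43e-05), and 3 and 0 in DDC_only against PBS_only, led by Arsa (1.98 ± 0.27, adjusted p = 2.18e-06). Of 11 UDP-glucuronosyltransferase pathway genes tested, 0 were higher and 6 lower in Tu_AKTNRAS against Tu_AKTCAT, led by Ugt1a2 (-2.75 ± 0.31, adjusted p = 3.03e-08). In DDC_only against PBS_only 1 was higher and 6 lower, led by Ugt3a1 (-1.66 ± 0.24, adjusted p = 6.72e-06).

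Nuclear receptors known to control sulfotransferase genes were measured on the same arrays. Nr1i3, the xenobiotic receptor CAR, was lower with DDC in DDC_only (-1.39 ± 0.45, adjusted p = 0.0232), in non-tumoral liver (-1.83 ± 0.45, adjusted p = 0.00437) and in AKT-CAT tumours (-1.51 ± 0.39, adjusted p = 0.0104). The non-tumoral groups with and without DDC lay on different slides, and the part of slide in that fall was not tested. Nr1i3 was lower in Tu_AKTCAT than in NonTu_AKTCAT (-1.70 ± 0.42, adjusted p = 0.00729) and in Tu_AKTNRAS than in Tu_AKTCAT (-3.27 ± 0.39, adjusted p = 8.93e-08). With CCl4, Nr1i3 read 9.64, 9.64, 9.58 and 9.73 in NonTu_AKTCAT_CCl4, against 10.59, 10.67 and 9.87 in NonTu_AKTCAT, without overlap. In tumours it read 8.12, 6.49, 9.04 and 7.02 in Tu_AKTCAT_CCl4, against 9.16, 8.29, 8.28 and 9.0 in Tu_AKTCAT, with overlap. Of the 21 receptors and hepatocyte factors tested, 1 was higher and 6 lower in DDC_only against PBS_only, beside 11.1% and 11.6% of all genes. In NonTu_AKTCAT_CCl4 against NonTu_AKTCAT 1 was higher and 5 lower, beside 10.7% and 8.21%, and in Tu_AKTNRAS against Tu_AKTCAT 0 and 12, beside 20.6% and 16.9%. Esr1, the estrogen receptor, was higher with CCl4 in non-tumoral liver (1.73 ± 0.41, adjusted p = 0.00351) and lower with DDC in AKT-CAT tumours (-1.86 ± 0.38, adjusted p = 0.00169).

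Sex-biased liver genes moved in the same comparisons. Of 8 female-biased genes tested, 6, 5 and 5 were lower with DDC in DDC_only, non-tumoral liver and AKT-CAT tumours, beside 11.6%, 7.78% and 5.86% of all genes, and 0 were higher. With CCl4, 4 were lower in non-tumoral liver and 3 in tumours, beside 8.21% and 3.18%, with Xist among them each time. Cyp2b9, a female-biased cytochrome P450, read 10.29, 10.21 and 10.16 in DDC_only and 12.82, 12.82 and 12.68 in PBS_only. The male-biased Cyp2d9 read 13.03, 12.68 and 12.81 in DDC_only and 7.58, 8.31 and 7.75 in PBS_only, while of the 11 male-biased genes 3 were higher and 4 lower in DDC_only. A1bg, a female-biased gene of liver, differed by -7.29 ± 0.76 in DDC_only (adjusted p = 1.7e-08). Their part in the falls of Sult3a1 and Sult2a6 was not tested.

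The members varied together only in part. Over the 36 arrays, which share groups and slides, Sult2a8 and Sult5a1 correlated at r = 0.82, Sult1d1 with Sult5a1 at 0.74 and Sult1d1 with Sult2a8 at 0.71. Sult2a6 correlated with Sult2a8, its own family member, at 0.50, and with Sult3a1 at 0.61. After each group's mean was taken off, Sult2a8 and Sult5a1 were left at 0.32, while Sult1a1 and Sult1d1 stood at 0.77. The genes outside the family whose levels ran most like Sult2a8 over the 36 arrays were Cyp2d13 (r = 0.94), Ghr (0.91) and Slc22a26 (0.90). For Sult5a1 they were Scnn1a (0.95), Dct (0.92) and Zap70 (0.91). For Sult2a6 they were Slc1a2 (0.87), Smim19 (0.81) and Ppara (0.81), and for Sult3a1 Cd163 (0.86), Cux2 (0.84) and Anks1 (0.82). Sult1d1 ran with Hs3st3a1 (0.88), Agxt (0.87) and Afmid (0.87), Sult1e1 with Galnt18 (0.84), Slc35b3 (0.80) and Adm2 (0.79), and Sult1c2 with Gna14 (0.69), Pcbp2 (0.64) and Slc25a30 (0.60). The nearest to Sult1a1 were Man2a1, Setd6 and Abcg5, at 0.60, 0.60 and 0.59. These correlations are descriptions, with no test.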

How the data were processed

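RNA from liver or liver tumour was amplified to biotin-labelled cRNA and hybridised to Illumina bead arrays, per the labels' protocols. The deposited table held, for 25697 probes, a non-normalized intensity per array and a detection p-value, as deposited by the authors. GenomeStudio is named in the submitters' processing notes, with its version not stated there. The genome build behind the probes is not given in the sources used here. A second deposited table, holding values normalized by the authors, served only as an alternative.

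The intensity values were background corrected by normexp with the detection p-values standing in for negative controls, quantile normalized and put on the log2 scale (neqc of limma 3.58.1 in R 4.3.3, offset 16). Probes detected at p under 0.05 on at least 3 of 36 arrays were kept. Of several probes of a gene the one with the highest mean was used, which left 10765 genes. A single limma model of the 10 groups gave every comparison, two-sided, with Benjamini-Hochberg adjustment over all genes, and a gene was called at an adjusted p under 0.05. The script was tested on simulated data. Fold bounds set an undetected group, per array, at the higher of the array's lowest detected value and the probe's own.

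Of the 9 genes, the 8 in the fit were counted in every comparison, and every called gene was named. For genes that were not called, the text gives values in some comparisons only. Sult1b1 was not in the fit and is described only by its detection. Of other lists, genes past the threshold were named in order of change, up to 4 a comparison, with exceptions stated. The members and lists were chosen with earlier results of these data known. Direct CCl4 against DDC comparisons and the use of the other probe of Sult1d1 and Sult5a1 were added after values were seen. In no comparison did every pair of same-numbered samples have deviations correlated over 0.1 (pairs ran from -0.29 to 0.35), so numbers were not used as pairs. Other alternatives concerned filter, background, scaling, prior, probe averaging, slide, samples in the model and each array left out. Array number limits the precision.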

Additional observations from a re-analysis of the deposited data

Results flagged for a closer look

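Sult1c2 on array 2 of Tu_AKTCAT_CCl4 read 10.45, while the other 3 arrays of that group read 7.91 to 8.04. The gap was 0.948 of the group's range, above Dixon's critical value at the 95% level for 4 values, and this was 1 of 48 sets of 4 arrays tested, where chance marks about 1 in 20. Without this array Sult1c2 was called lower in Tu_AKTCAT_CCl4 than in Tu_AKTCAT (-0.92, limma, adjusted p = 0.0429), and with it was not (-0.29). The same array was the lowest of its group for Sult1a1, Sult1d1, Sult2a6 and Sult2a8.

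The change of Sult5a1 with DDC differed between AKT-CAT tumours and non-tumoral liver by 1.71 on the log2 scale (limma, adjusted p = 0.0141), being -0.86 in tumours and -2.57 in non-tumoral liver. All 4 Tu_AKTCAT arrays lay between 5.13 and 6.10, near the lowest detected intensity, and the part of this in the difference was not tested.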

How the results depend on the processing

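The counts of called sulfotransferases moved by over 1.5 times as follows. Median scaling gave 4 for the difference of DDC effects by driver, 0 for that by tissue and 5 for Tu_AKTCAT_CCl4 against NonTu_AKTCAT_CCl4, and turned the sign of Sult1e1 in Tu_AKTNRAS, to -0.29 against PBS_only and -0.25 against Tu_AKTCAT. Fitting only the compared groups gave 0 for the tissue difference with DDC, 0 for NonTu_AKTCAT against PBS_only and 2 for Tu_AKTCAT_DDC against NonTu_AKTCAT_DDC. Slide as a fixed block gave 0 for each of these 3, 2 for NonTu_AKTCAT_DDC against NonTu_AKTCAT, 1 for Tu_AKTCAT against NonTu_AKTCAT and 1 for Tu_AKTCAT_DDC against Tu_AKTCAT. Within slide 3, Tu_AKTCAT against NonTu_AKTCAT gave 0, and within slide 2, Tu_AKTCAT_DDC gave 0 against both NonTu_AKTCAT_DDC and Tu_AKTCAT, with fewer arrays each time. Tu_AKTCAT_DDC against NonTu_AKTCAT_DDC also gave 0 with no detection filter, with no normexp, with the authors' normalized table and with a trended prior. Leaving out 1 array gave 0 to 1 for that comparison, 0 to 1 for the DDC differences by driver and by tissue, 1 to 2 for Tu_AKTCAT_CCl4 against Tu_AKTCAT_DDC and 0 to 1 for Tu_AKTNRAS_DDC against Tu_AKTNRAS. Except where shown by fewer arrays, the cause was not tested.

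With the replicate block, Tu_AKTCAT_DDC against NonTu_AKTCAT_DDC gave 0, since Sult1d1 missed the threshold (-1.51, adjusted p = 0.0552), and the other 40 of 41 gene calls held. Of the called gene results, 38 of 41 held under median scaling, 11 of 20 with slide as a fixed block, 41 of 41 with slide as a random block, 7 of 15 with the other probe and 257 of 300 with 1 array left out. Median scaling shifted the median of all genes by -0.37 to 0.40 between groups. Over all genes it called 4379 in NonTu_AKTCAT_DDC against NonTu_AKTCAT, where the model called 1948, and slide as a block called 283. Signal near background limits Sult1b1, Sult1e1, Sult3a1 and Sult5a1.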
